A study of Mus musculus with 7 samples.

Results

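The transcriptome of the mouse submandibular gland was compared with that of the parotid gland at postnatal day 18 (P18), gene by gene. The members are 4 of the 7 libraries of the series, 2 of submandibular gland and 2 of parotid gland, both from P18 mice, taken by gland and age in the labels. Of 23366 genes in the count table, 15129 passed edgeR's filter on low counts and were tested, and every difference is P18 submandibular minus P18 parotid. Parotid libraries of adult mice aged 12 weeks (n = 3) shared the fit, which lends their spread to the test, and their levels are given as a description. For each group the labels name the gland and the age. They call the material whole tissue, although the extraction protocol speaks of isolated epithelium. Nothing in the labels says that the replicates are separate animals, so the spread behind the p-values is that between libraries and may be technical.

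Both glands are trees of ducts that end in acini. Acinar cells make the primary saliva, duct cells change its salts, and myoepithelial cells squeeze both. The parotid is a serous gland known for amylase, whereas the rodent submandibular gland makes a more mucous saliva and is still maturing around weaning. Secreted proteins are folded in the endoplasmic reticulum (ER) and pass through the Golgi apparatus, where many of them, mucins above all, receive sugar chains.

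The P18 libraries held 13152194 to 15339757 counts in submandibular gland and 12844534 to 14421876 in parotid. Levels are CPM, counts relative to library size scaled by edgeR's TMM factors, unless stated. Adult parotid replicate 1 had 2774 counts of Xist and 0 of 4 Y-linked genes, whereas the other libraries had 3 to 21 counts of Xist and at least 336 of each Y-linked gene. The P18 and adult libraries stood apart in RNAs without a poly(A) tail: Rpph1, the RNA of ribonuclease P, averaged 20400 TPM in P18 submandibular gland, 25600 TPM in P18 parotid and 4.58 TPM in adult parotid, and Rmrp averaged 13800, 18500 and 6.14 TPM in these groups. Neither was called between the P18 glands, but age and this difference in library content cannot be told apart, so levels in adult parotid are set beside the P18 levels with that limit. With the 4 P18 libraries alone, 1349 genes were called. Gland markers went with the labels. Smgc, a mucin-like product of the young submandibular gland, had 177000 and 219000 CPM in submandibular libraries, against 3.95 and 5.51 CPM in P18 parotid, and Amy1, the salivary amylase, had 2.84 and 23.6 CPM in submandibular libraries, against 3510 and 1980 CPM in P18 parotid. Muc19, a mucin of the neighbouring sublingual gland, had 8.05 and 3.74 CPM in submandibular libraries, against 0.272 and 0 CPM in P18 parotid. The glands also differed in other tissue: 20 fat cell genes summed to 90.4 and 93.1 CPM in submandibular libraries, against 4600 and 16300 CPM in P18 parotid, and 19 skeletal muscle genes to 7.64 and 72.5 CPM in submandibular libraries, against 1840 and 8840 CPM in P18 parotid. Epithelial junction and polarity genes (38 members) summed to 3480 and 3660 CPM in submandibular libraries, against 1750 and 854 CPM in P18 parotid. P18 parotid replicate 2 thus had more fat and muscle RNA and less epithelial RNA than replicate 1. In bulk RNA, fewer cells of a type and less RNA per cell cannot be told apart. The part of these tissues in the other differences was not tested beyond the values given below without parotid replicate 2 and with libraries scaled to the epithelial genes, an alternative chosen after seeing the data.

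By edgeR's quasi-likelihood test at an adjusted p of 0.05, 1537 genes were higher (10.2% of those tested) and 2149 were lower (14.2%) in submandibular gland. A difference of at least 4-fold was reached by 401 of the higher genes (2.65% of those tested) and by 1219 of the lower genes (8.06%). The median log2 difference over all genes tested was -0.07. It was -0.67 with plain library sizes, -0.79 on log2(TPM + 1) and -1.74 with libraries scaled to the epithelial genes. Calls kept their direction and passed under DESeq2 size factors, plain library sizes and epithelial scaling alike for 202 of the higher and 2129 of the lower genes. Plain library sizes and epithelial scaling move the median of all genes downward. Keeping a lower call under them was therefore largely fixed in advance, and they serve as a check on the higher calls only. The calls rest on both submandibular libraries: 441 genes passed without submandibular replicate 1 and 148 without submandibular replicate 2, where the spread of the lone library of that gland has to be borrowed from parotid. The count was 2385 without adult parotid replicate 2. Of 111 called genes named in the text, 28 stayed called with any 1 library left out, and none changed direction.

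**Figure D1:**
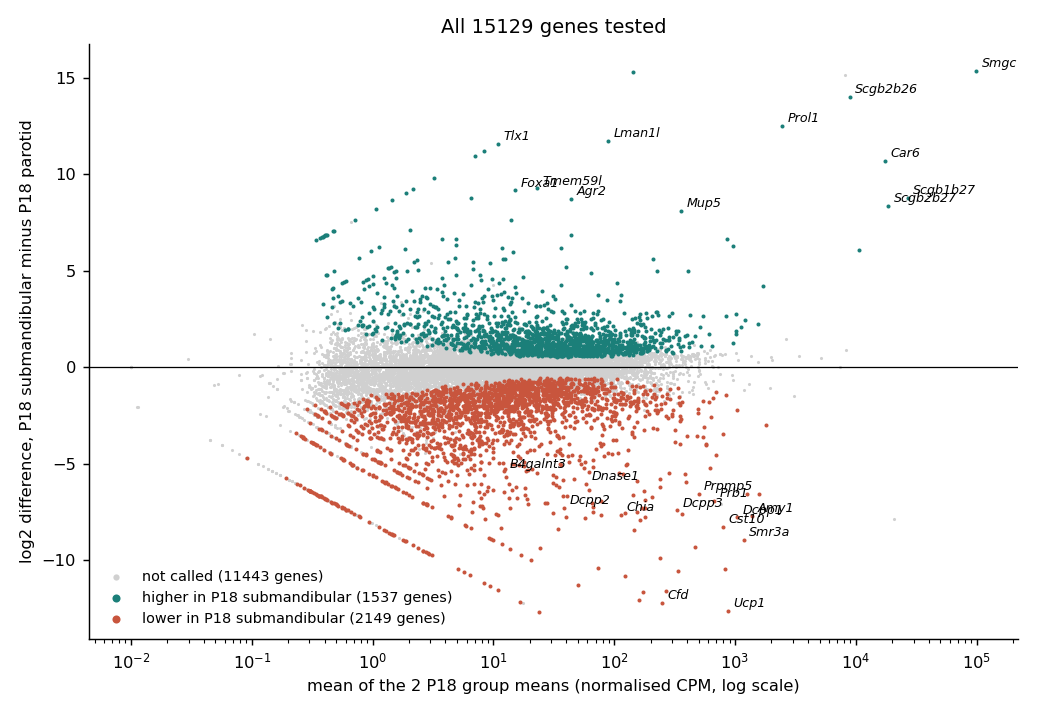
Log2 difference between P18 submandibular gland and P18 parotid (vertical) against the mean of both group means in normalised CPM (horizontal, log scale) for 15129 genes, coloured by call. The called genes with the highest levels in submandibular gland are secretory products such as Smgc and Car6, while the lower genes include parotid products such as Smr3a and Amy1 and fat genes such as Ucp1 and Cfd.

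Ranked per length by mean TPM, the leading mRNAs of submandibular gland were the secretoglobin Scgb1b27 (213000 TPM), Smgc (108000 TPM), Scgb2b27 (72900 TPM), Pip (59200 TPM), Scgb2b26 (54600 TPM) and Car6 (41600 TPM). All of these were called higher. In P18 parotid the first place was held by Bpifa2, a secreted parotid protein, at 135000 TPM. Bpifa2 had 81.1 and 263 CPM in submandibular libraries, against 64400 and 17600 CPM in P18 parotid. The groups were far apart, but with a log2 difference of -7.90 ± 2.52 (SE) it missed the threshold (edgeR adjusted p = 0.0585). It passed with either P18 parotid replicate left out.

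The list of acinar secretory products split in both directions. Of 43 members tested 13 were higher (30.2%, against 10.2% of all genes) and 14 lower (32.6%, against 14.2%). The median log2 difference was -1.80 (-0.20 with members at 0 counts set to their bound). The median stayed negative under the other scalings, but plain library sizes, TPM and epithelial scaling move the median of all genes downward too. On log2(TPM + 1) the list stood 0.18 above the median of all genes. With the 4 P18 libraries alone the list median was 0.16, with 11 higher and 12 lower of 36 tested. It was 0.00 without P18 parotid replicate 1 and -0.04 without adult replicate 1, and with submandibular replicate 1 or 2 left out the counts were 5 higher and 3 lower or 4 and 4. In 36 of the 43 the P18 libraries of the glands did not overlap, which held for 64.9% of all genes tested.

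Among the higher products, one set was far lower in parotid at both ages. Smgc exceeded parotid by a log2 difference of 15.35 ± 3.82 (SE; edgeR adjusted p = 0.0277) and had 0, 24.1 and 0.0483 CPM in adult parotid. Its call was lost with either P18 parotid replicate left out. Scgb2b26, a secretoglobin of the androgen-binding protein family, had 18100 and 17400 CPM in submandibular libraries, against 1.32 and 0.806 CPM in P18 parotid (log2 difference 14.02 ± 1.2, edgeR adjusted p = 0.00203), with 13.0, 3.18 and 5.5 CPM in adult parotid. Its relatives were also high, Scgb1b27 with 52100 and 55000 CPM in submandibular libraries, against 218 and 23.3 CPM in P18 parotid, and Scgb2b27 with 38100 and 36000 CPM, against 180 and 45.1 CPM. Counts of such near-identical copies can be split between them. Prol1, a proline-rich secreted protein, had 7060 and 2770 CPM in submandibular libraries, against 1.32 and 0.358 CPM in P18 parotid (log2 difference 12.51 ± 0.98). In adult parotid it had 66.5 to 91.4 CPM. Scgb2b26, Scgb2b27 and Prol1 stayed called with any 1 library left out, and Scgb1b27 did not.

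A second set of submandibular products was low in the parotid at P18 and high in the parotid of adults. Car6, the carbonic anhydrase secreted into saliva, had 35700 and 34200 CPM in submandibular libraries, against 31.5 and 10.4 CPM in P18 parotid (log2 difference 10.70 ± 1.28, edgeR adjusted p = 0.00403). Adult parotid had 13200, 20700 and 21600 CPM. Pip, the prolactin-inducible protein, had 20800 CPM in each submandibular library, against 554 and 70.8 CPM in P18 parotid, with 11300 to 22300 CPM in adult parotid. Wfdc12, a small protease inhibitor, had 1620 and 1800 CPM in submandibular libraries, against 30.8 and 3.85 CPM in P18 parotid, with 1000 to 5270 CPM in adult parotid. Mup5, a major urinary protein that binds small odorants, had 675 and 753 CPM in submandibular libraries, against 1.5 and 3.72 CPM in P18 parotid, with 242 to 509 CPM in adult parotid. Klk1, the tissue kallikrein, had 3340 and 3140 CPM in submandibular libraries, against 267 and 81.9 CPM in P18 parotid, with 1680 to 3060 CPM in adult parotid. All 5 were called, Car6 and Mup5 with any 1 library left out. For such genes the P18 parotid level stood apart from the adult parotid and the submandibular level alike.

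Among genes at least 4-fold higher in submandibular gland, the adult parotid mean lay within 4-fold of the submandibular mean but not of the P18 parotid mean in 47 of 401 (11.7%). In 127 (31.7%) it lay within 4-fold of P18 parotid alone, in 219 (54.6%) within 4-fold of both, with levels under 1 CPM set to 1, and in 8 (2.0%) of neither. For the 1219 genes at least 4-fold lower, the adult mean lay within 4-fold of P18 parotid alone in 552 (45.3%) and of submandibular gland alone in 80 (6.56%). These counts share the P18 libraries with the calls and carry no test.

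Of the 14 products lower in submandibular gland, several were among the most abundant transcripts of adult parotid. Smr3a, a submaxillary gland androgen-regulated protein by name, had 0.355 and 9.30 CPM in submandibular libraries, against 4080 and 646 CPM in P18 parotid (log2 difference -8.95 ± 2.41, edgeR adjusted p = 0.0350). Adult parotid had 164000 to 212000 CPM. Amy1 differed by -7.70 ± 1.88 (adjusted p = 0.0259) and had 143000 to 165000 CPM in adults. Dcpp1, a secreted protein of demilune and parotid cells, had 0.710 and 18.0 CPM in submandibular libraries, against 2720 and 1400 CPM in P18 parotid, and Dcpp2 and Dcpp3 differed by -7.31 ± 0.98 and -7.43 ± 1.19. Cst10, a cystatin, had 0.0592 and 10.2 CPM in submandibular libraries, against 2320 and 847 CPM in P18 parotid. Chia, an acidic chitinase, had 0 and 2.27 CPM in submandibular libraries, against 351 and 98.5 CPM in P18 parotid. Dnase1, the secreted deoxyribonuclease, had 1.95 and 1.54 CPM in submandibular libraries, against 211 and 21.5 CPM in P18 parotid. In all of these P18 parotid replicate 2 was the lower parotid library. That order was a condition of the rule that took them, genes not higher in parotid replicate 2, and is no finding. Submandibular replicate 2 had more of the Smr3a, Amy1, Dcpp1, Cst10 and Chia transcripts than replicate 1. The Dcpp calls held with any 1 library left out. Those of Smr3a, Amy1, Cst10, Chia and Dnase1 did not.

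The proline-rich proteins Prb1 and Prpmp5, which bind dietary tannins, followed another course. Prb1 had 9.11 and 12.7 CPM in submandibular libraries, against 2440 and 240 CPM in P18 parotid (log2 difference -6.94 ± 1.13, edgeR adjusted p = 0.00823). Prpmp5 had 9.29 and 11.6 CPM in submandibular libraries, against 1700 and 282 CPM in P18 parotid (-6.56 ± 0.91). Adult parotid held 290 to 531 CPM of Prb1 and 368 to 576 CPM of Prpmp5, under the level of P18 parotid replicate 1. Lpo, the lactoperoxidase of saliva, gave no call, with 1620 and 1630 CPM in submandibular libraries and 1710 and 482 CPM in P18 parotid.

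**Figure D2:**
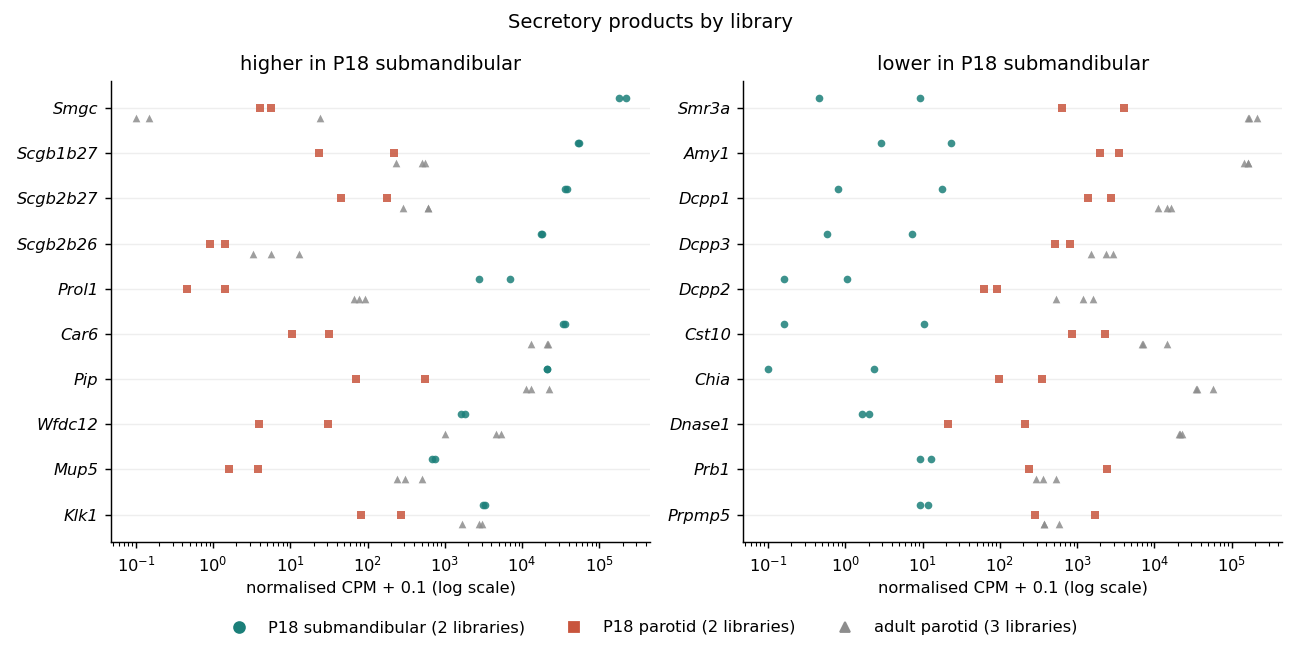
Normalised CPM plus 0.1 (horizontal, log scale) of 20 secretory genes in each library, with P18 submandibular as circles, P18 parotid as squares and adult parotid as triangles. On the left Smgc, Prol1 and the secretoglobins were far lower at both parotid ages, whereas Car6, Pip, Wfdc12, Mup5 and Klk1 in adult parotid reached the submandibular range or came near it. On the right Prb1 and Prpmp5 were the genes whose adult parotid levels in normalised CPM did not exceed both P18 parotid libraries. This order depends on the scaling: by mean TPM, Dcpp3 was also lower in adult parotid (3110) than in P18 parotid (3380).

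Some products of opposite direction are chromosomal neighbours. In the RefSeq annotation of GRCm38.p6, which is another build than the mm9 used for the counts and serves here for gene order and sequence, Odam, Csn3, Smr3a, Smr2 and Prol1 lie in that order within 432 kb of chromosome 5. Odam, first known from the enamel organ, was lower in submandibular gland by a log2 difference of -4.58 ± 0.75, as was Smr3a, whereas Smr2 (2.52 ± 0.65, edgeR adjusted p = 0.0310) and Prol1 were higher. Smr2 had 5.56 and 14.7 CPM in submandibular libraries, against 2.09 and 1.43 CPM in P18 parotid, and lost its call without P18 parotid replicate 2, with plain library sizes and with epithelial scaling. Csn3, kappa-casein, had 0 counts in both submandibular libraries and 0.499 and 0.0896 CPM in P18 parotid, at least 2.98-fold lower, and was not called (adjusted p = 0.0549). On chromosome 6, Prb1 and Prpmp5 were lower and A630073D07Rik, at the other end of the same 418 kb run, was higher, with 755 and 814 CPM in submandibular libraries, against 46.2 and 4.12 CPM in P18 parotid. The secretoglobins on chromosome 7 did not split: Scgb2b24, Scgb1b24, Scgb2b26, Scgb2b27, Scgb1b27 and Scgb1b30, within 358 kb, were all called higher with TMM and with each other scaling of the counts. Scgb2b24 was not called without submandibular replicate 2 and Scgb1b30 with either submandibular replicate left out, while Scgb1b24 then fell below the filter and was not tested. The 3 Dcpp genes, within 36.8 kb of chromosome 17, were all lower, again under each scaling. Plain library sizes and epithelial scaling favour lower calls.

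The sequences before 4 start sites are shown because Smr2 and Smr3a differ in direction although their promoters are close copies, and because Smgc and Prol1 are among the products with the largest differences. Each is 250 bases upstream of the RefSeq start site in GRCm38.p6, plus strand, 5′ to 3′. In Smgc (chr15:91838078-91838327) and Prol1 (chr5:88317062-88317311), capitals mark matches on either strand to TATAAA, the TATA box, and to TGTTTAC, a forkhead-type motif. In Smr2 (chr5:88086306-88086555) and Smr3a (chr5:88002275-88002524), capitals mark aligned bases that differ between the pair.
Smgc: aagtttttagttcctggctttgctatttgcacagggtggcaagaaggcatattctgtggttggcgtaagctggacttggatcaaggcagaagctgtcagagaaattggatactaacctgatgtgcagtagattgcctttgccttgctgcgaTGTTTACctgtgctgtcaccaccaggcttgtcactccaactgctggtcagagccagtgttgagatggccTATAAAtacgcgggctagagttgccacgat
Prol1: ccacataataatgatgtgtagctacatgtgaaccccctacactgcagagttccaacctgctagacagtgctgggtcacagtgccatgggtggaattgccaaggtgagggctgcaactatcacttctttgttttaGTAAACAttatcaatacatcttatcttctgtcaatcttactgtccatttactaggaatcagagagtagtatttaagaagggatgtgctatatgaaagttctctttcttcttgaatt
Smr2: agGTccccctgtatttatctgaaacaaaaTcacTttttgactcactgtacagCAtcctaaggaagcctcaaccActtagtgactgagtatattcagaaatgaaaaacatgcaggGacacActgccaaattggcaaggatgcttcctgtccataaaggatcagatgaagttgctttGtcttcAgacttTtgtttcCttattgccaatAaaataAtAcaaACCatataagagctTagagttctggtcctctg
Smr3a: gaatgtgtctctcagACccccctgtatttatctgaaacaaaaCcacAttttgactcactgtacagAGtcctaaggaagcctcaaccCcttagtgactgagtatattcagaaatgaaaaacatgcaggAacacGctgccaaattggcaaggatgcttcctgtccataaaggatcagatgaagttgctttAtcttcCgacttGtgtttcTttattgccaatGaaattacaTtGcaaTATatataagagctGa

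In a global alignment the Smr2 and Smr3a sequences had the same base at 214 of 234 aligned positions (91.5%), while the other pairs of these 4 sequences had 55.5% to 62.1%. The 20 differing bases fell on both sides of a long run of identical bases, with a dense group toward the start-site end. Smgc held a TATAAA starting 30 bases before its start site and a TGTTTAC starting 99 bases before it. Prol1 held the forkhead-type motif on the other strand (GTAAACA), starting 116 bases before its start site. Neither Smr2 nor Smr3a held a match to these letters in the window. TGTTTAC or its reverse complement was found in 3.17% of all 32851 promoters in the table and TATAAA or its reverse complement in 12.4%. The motifs do not overlap, and a match is a description of the letters only.

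Epithelial genes and the machinery of secretion were higher in submandibular gland. The shares below stand against 10.2% higher and 14.2% lower of all genes. Of 9 keratins tested 7 were higher (77.8%) and 0 lower, with a median log2 difference of 1.97 that was positive under every scaling. Krt7, a keratin of ducts, had 201 and 225 CPM in submandibular libraries, against 42.8 and 17.1 CPM in P18 parotid. Of 34 genes for ER folding and quality control tested, 25 were called higher (73.5%) and 0 lower, with a median log2 difference of 1.03. Of 58 genes for ER to Golgi traffic, 43 were higher (74.1%) and 0 lower, with a median of 1.06. Both medians were below the 1.43 of the epithelial junction genes, of which 23 of 38 were higher (60.5%) and 0 lower. With libraries scaled to the epithelial genes the directions flipped, to medians of -0.61 with 0 higher and 5 lower for folding and -0.55 with 2 higher and 9 lower for traffic. With plain library sizes the medians were 0.41 and 0.45. Relative to the median of all genes tested, the folding list stood 1.10 above it with TMM and 1.13 above it with epithelial scaling. Most calls of the keratin, junction, folding and traffic lists were lost with either submandibular replicate left out. Without submandibular replicate 1, 5 folding and 6 traffic genes passed, and without replicate 2 the numbers were 0 and 1.

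Single members departed from this common level. Lman1l, a relative of the cargo receptor Lman1, had 167 and 188 CPM in submandibular libraries, against 0.0908 and 0 CPM in P18 parotid, a ratio of 3910 (95% Poisson interval 1080 to 32300, counting error only). Its adult parotid values were 0.0979, 24.9 and 0.0965 CPM, and its call (edgeR adjusted p = 0.0285) was lost with either P18 parotid replicate left out. Lman1 itself had 420 and 417 CPM in submandibular libraries, against 164 and 123 CPM in P18 parotid (log2 difference 1.54 ± 0.23). Sec23b, a coat subunit of the vesicles that leave the ER, had 276 and 364 CPM in submandibular libraries, against 54.9 and 37.8 CPM in P18 parotid (2.79 ± 0.29, adjusted p = 0.00305), and stayed called with any 1 library left out and under epithelial scaling. Its paralog Sec23a was not called, with 31.9 and 36.0 CPM in submandibular libraries and 35.4 and 47.4 CPM in P18 parotid. P4hb, protein disulfide isomerase, was the most abundant of these, with 2560 CPM in each submandibular library, against 720 and 347 CPM in P18 parotid. The ER proteins Creld2 and Sdf2l1 (1.77 ± 0.23 and 1.90 ± 0.26) and the Golgi protein Yipf5 (1.54 ± 0.19) rose by amounts near the epithelial median, and these and P4hb lost their calls under epithelial scaling.

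Regulators of secretory capacity gave 4 calls higher (25%, against 10.2% of all genes) and 1 lower (6.25%, against 14.2%) among 16 tested. Their median was 0.46, but -0.15 with plain library sizes, -0.39 on log2(TPM + 1) and -1.15 with epithelial scaling. Creb3l4, a membrane-bound transcription factor activated by cleavage in the Golgi, had 41.8 and 53.3 CPM in submandibular libraries, against 4.68 and 1.39 CPM in P18 parotid and 2.35 to 5.66 CPM in adult parotid. Spdef, a factor needed by mucous cells, had 87.8 and 93.0 CPM in submandibular libraries, against 19.6 and 5.96 CPM in P18 parotid. Both kept their calls under epithelial scaling, while Xbp1 and Eif2ak3 of the unfolded protein response did not. Bhlha15, the acinar factor also called Mist1, had 379 and 389 CPM in submandibular libraries and 238 and 67.1 CPM in P18 parotid, and was not called. Atf5 was the lower gene, with 12.7 and 10.3 CPM in submandibular libraries, against 18.6 and 32.7 CPM in P18 parotid, and lost its call without P18 parotid replicate 2 and without adult replicate 2 or 3. Agr2, a disulfide isomerase of mucous cells, lay outside the lists, with 81.0 and 95 CPM in submandibular libraries, against 0.272 and 0.134 CPM in P18 parotid (log2 difference 8.71 ± 0.96, edgeR adjusted p = 0.00343). Its call held with any 1 library left out.

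**Figure D3:**
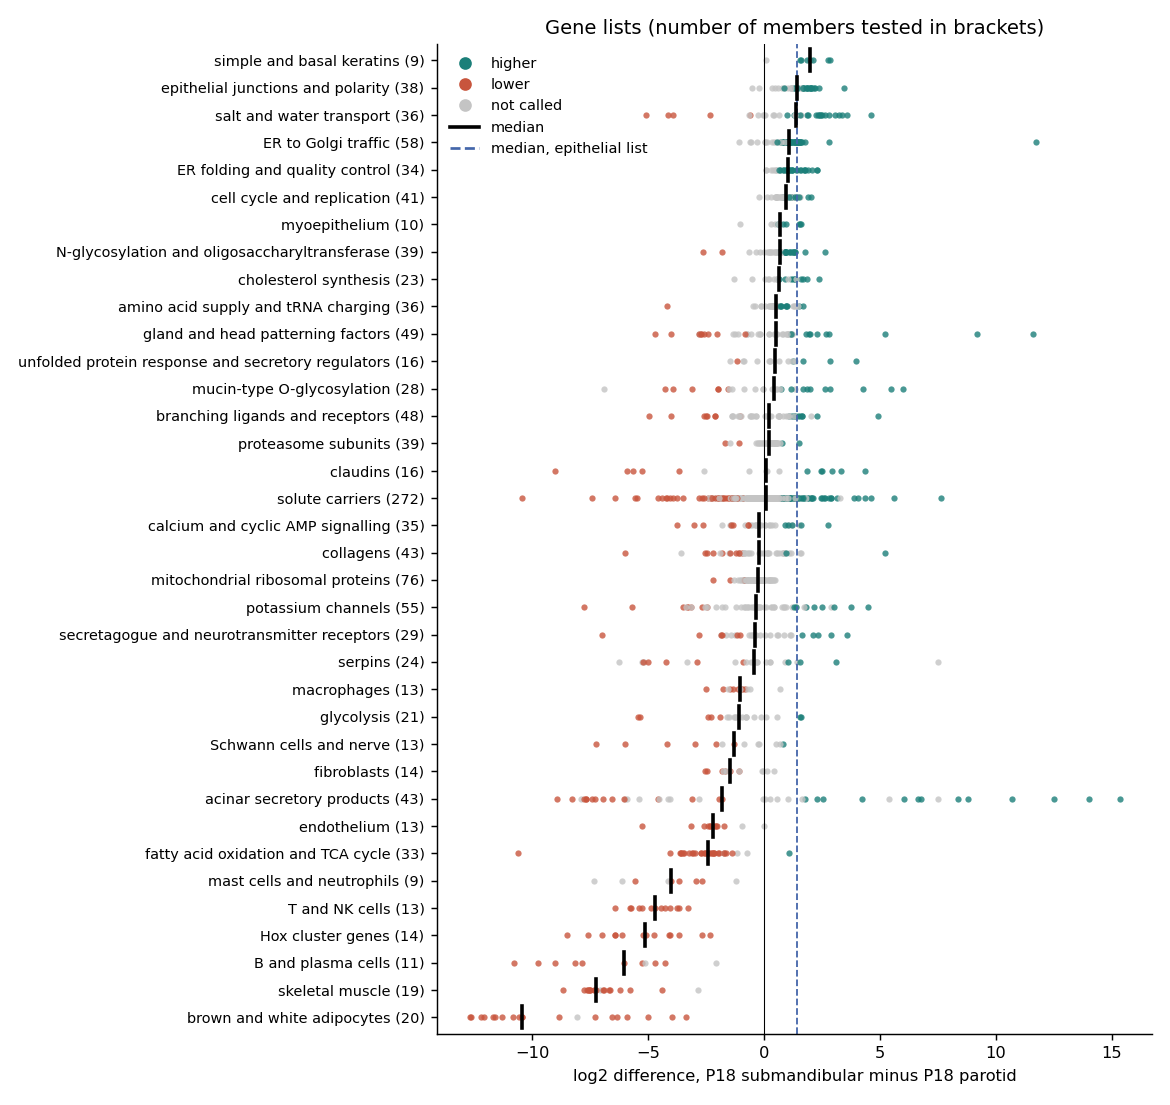
Log2 difference between P18 submandibular gland and P18 parotid (horizontal) of each member of 36 gene lists (rows, ordered by median), coloured by call, with the list median as a black bar and the median of the epithelial junction list as a dashed line. Keratins (median 1.97) lie right of the dashed line, ER and traffic lists just left of it, and lists of fat, muscle and lymphoid cells and Hox genes far to the left.

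Enzymes that build sugar chains on proteins differed in both directions. Of 28 mucin-type O-glycosylation genes tested, 10 were higher (35.7%, against 10.2% of all genes) and 6 lower (21.4%, against 14.2%). Their median was 0.42, but -0.20 with plain library sizes, -0.41 on log2(TPM + 1) and -1.24 with epithelial scaling. The first sugar is set by polypeptide GalNAc transferases. Of these Galnt5 had 13.1 and 11.4 CPM in submandibular libraries, against 0.681 and 0.582 CPM in P18 parotid (log2 difference 4.27 ± 0.79, edgeR adjusted p = 0.0116), and Galnt3, Galnt7 and Galnt10 were higher by 1.86 ± 0.43, 1.68 ± 0.43 and 1.99 ± 0.34. Galnt6 went the other way, with 1.12 and 0.732 CPM in submandibular libraries, against 22.7 and 6.0 CPM in P18 parotid (-3.92 ± 0.66), and Galnt1 was lower with 37.9 and 41.3 CPM in submandibular libraries, against 134 and 102 CPM in P18 parotid. Branching of the chain showed the same contrast. Gcnt3, the mucin-type branching enzyme, had 4.08 and 4.54 CPM in submandibular libraries, against 0.136 and 0.0448 CPM in P18 parotid (5.47 ± 0.81). Gcnt1, the core 2 enzyme of leukocytes and other cells, had 1.83 and 2.42 CPM in submandibular libraries, against 66.0 and 16.8 CPM in P18 parotid (-4.29 ± 0.64), and 69.1 to 85.4 CPM in adult parotid. Galnt5 and Gcnt3 kept their calls under epithelial scaling, while Galnt3, Galnt7 and Galnt10 did not. The lower Galnt6, Galnt1 and Gcnt1 kept theirs too, but that scaling favours lower calls. Galnt7 also lost its call without adult replicate 2 or 3. Without submandibular replicate 1 the list held 1 higher and 0 lower calls, and without replicate 2 it held 0 of either.

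The sialic acid end of the chains differed as well. St6galnac1, which adds sialic acid to the first sugar of mucins, had 20.2 and 37.4 CPM in submandibular libraries, against 0.681 and 0.224 CPM in P18 parotid, with 54.4, 2.93 and 5.60 CPM in adult parotid, and lost its call with either P18 parotid replicate left out. St3gal1 had 458 and 333 CPM in submandibular libraries, against 82.3 and 27.6 CPM in P18 parotid (log2 difference 2.85 ± 0.49). St3gal4 had 332 and 379 CPM in submandibular libraries, against 75.4 and 38.8 CPM in P18 parotid. St3gal6, chosen after its values were seen, ran opposite, with 2.55 and 3.81 CPM in submandibular libraries, against 74.6 and 55.2 CPM in P18 parotid (-4.36 ± 0.29, edgeR adjusted p = 0.00175) and 184 to 208 CPM in adult parotid. Outside the lists and chosen after their values were seen, Gne, which starts sialic acid synthesis, had 692 and 781 CPM in submandibular libraries, against 158 and 69.9 CPM in P18 parotid, and Gfpt1, which starts hexosamine synthesis, had 941 and 919 CPM, against 216 and 83.6 CPM in P18 parotid. Both were called higher, but Gfpt1 and St3gal4 lost their calls under epithelial scaling. St3gal6 stayed called with any 1 library left out.

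Of 39 N-glycosylation genes tested, 19 were higher (48.7%, against 10.2% of all genes) and 2 lower (5.13%, against 14.2%). Their median was 0.68, but -0.24 on log2(TPM + 1) and -0.96 with epithelial scaling, where 0 were higher and 14 lower. Without submandibular replicate 1 there were 1 higher and 1 lower, and without replicate 2 there were 0 of either. Mgat4a, which adds a branch to N-glycans, had 472 and 499 CPM in submandibular libraries, against 106 and 50.1 CPM in P18 parotid (log2 difference 2.64 ± 0.37), while its paralog Mgat4b had 6.98 and 6.15 CPM in submandibular libraries, against 18.0 and 28.8 CPM in P18 parotid (-1.83 ± 0.27). Man1a, a mannosidase that trims N-glycans in the Golgi, had 15.8 and 14.6 CPM in submandibular libraries, against 119 and 71.9 CPM in P18 parotid (-2.65 ± 0.28), with 250 to 280 CPM in adult parotid. B4galnt3, which makes the LacdiNAc unit, had 0.533 and 0.586 CPM in submandibular libraries, against 44.0 and 3.85 CPM in P18 parotid (-5.40 ± 1.18), with 27.3 to 49.9 CPM in adult parotid. Mgat4a lost its call under epithelial scaling. The lower Mgat4b, Man1a and B4galnt3 kept theirs, but that scaling favours lower calls.

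**Figure D4:**
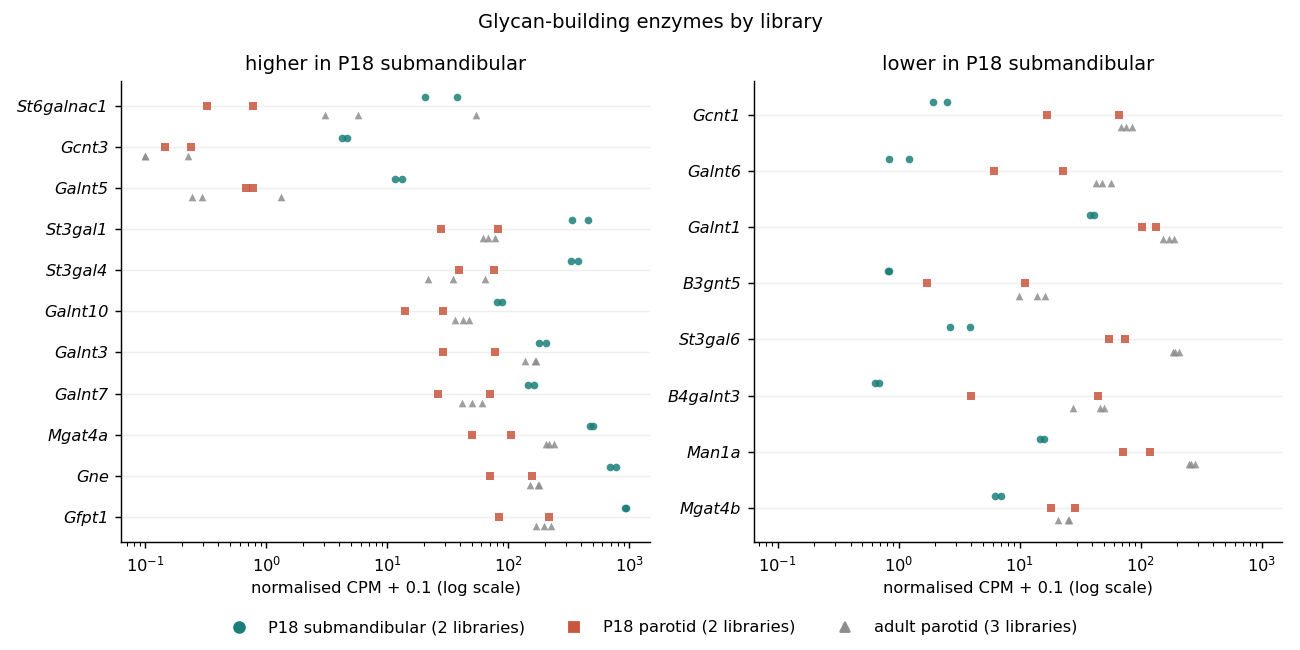
Normalised CPM plus 0.1 (horizontal, log scale) of glycan-building enzymes in each library, with P18 submandibular as circles, P18 parotid as squares and adult parotid as triangles. For Gcnt1, Galnt6, Man1a and St3gal6 the adult parotid libraries lie with or above the P18 parotid libraries and far from the submandibular ones, while the adult libraries scatter widely for St6galnac1.

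Of 36 salt and water transport genes tested, 19 were higher (52.8%, against 10.2% of all genes) and 5 lower (13.9%, against 14.2%). Their median log2 difference of 1.39 was -0.02 under epithelial scaling, where 7 were higher and 11 lower. Without submandibular replicate 1 there were 6 higher and 1 lower, and without replicate 2 there were 2 and 0. Scnn1b, a subunit of the epithelial sodium channel, had 45.0 and 49.1 CPM in submandibular libraries, against 6.26 and 3.67 CPM in P18 parotid (3.24 ± 0.36, edgeR adjusted p = 0.00358). Foxi1, the transcription factor of ionocytes, had 14.1 and 12.9 CPM in submandibular libraries, against 1.72 and 0.941 CPM in P18 parotid. Ascl3, a factor of duct progenitors and ionocytes, had 13.0 and 14.3 CPM, against 2.45 and 1.43 CPM, and the chloride channel Cftr had 29.7 and 34.4 CPM in submandibular libraries, against 4.18 and 1.16 CPM in P18 parotid. These 4 kept their calls under epithelial scaling, and Scnn1b and Foxi1 also with any 1 library left out. Acinar transporters differed less: Slc12a2, the chloride loader of acini, had 1510 and 1660 CPM in submandibular libraries, against 570 and 290 CPM in P18 parotid, and Aqp5, the acinar water channel, had 276 and 264 CPM, against 83.7 and 30.3 CPM, and both lost their calls under epithelial scaling. The lower genes included Aqp1, a water channel of vessels and red cells, with 7.16 and 6.81 CPM in submandibular libraries, against 99.7 and 382 CPM in P18 parotid, and the bicarbonate carrier Slc4a4 (-3.93 ± 0.56). Both were higher in parotid replicate 2, where endothelial genes (13 members) summed to 1050 CPM, against 485 CPM in parotid replicate 1, and their part was not tested.

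Of 272 solute carriers tested, 56 were higher (20.6%, against 10.2% of all genes) and 42 lower (15.4%, against 14.2%). With plain library sizes 20 were higher and 91 lower. Their median was 0.06, but -0.55 with plain library sizes and -1.52 with epithelial scaling. The largest named contrast was Slc6a15, a carrier of neutral amino acids known from the brain, with 24.0 and 31.6 CPM in submandibular libraries, against 0.136 and 0.134 CPM in P18 parotid (log2 difference 7.61 ± 0.53, edgeR adjusted p = 0.00175). Adult parotid had 0.0636 to 0.392 CPM. Slc7a10 and Slc28a2, carriers of small neutral amino acids and of nucleosides, were lower by -4.22 ± 0.35 and -4.42 ± 0.34, and these 3 genes stayed called with any 1 library left out. Claudins, the seals of tight junctions, gave 6 higher (37.5%) and 5 lower (31.2%) of 16 tested, against the same 10.2% and 14.2% of all genes. Their median of 0.10 was negative with plain library sizes, TPM and epithelial scaling. Cldn10, which forms ion pores between secretory cells, had 182 and 219 CPM in submandibular libraries, against 12.1 and 7.26 CPM in P18 parotid (4.37 ± 0.31, adjusted p = 0.00175), and Cldn4 had 35.4 and 35.3 CPM, against 4.81 and 2.2 CPM. Cldn22 ran opposite, with 0.178 and 0.0732 CPM in submandibular libraries, against 11.7 and 2.2 CPM in P18 parotid and 75.4 to 148 CPM in adult parotid. Cldn19, a claudin of kidney and myelinating Schwann cells, had 0 counts in submandibular libraries and 3.72 and 3.85 CPM in P18 parotid, at least 38.6-fold lower. The Schwann cell and nerve genes (13 members) moved the same way, at 158 and 155 CPM in submandibular libraries, against 347 and 331 CPM in P18 parotid, and their part was not tested. Cldn10, Cldn4 and Cldn19 stayed called with any 1 library left out.

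Receptors that drive secretion differed one by one. Of 29 tested, 5 were higher (17.2%, against 10.2% of all genes) and 6 lower (20.7%, against 14.2%), with a median of -0.39. With plain library sizes 2 were higher and 13 lower, and with epithelial scaling 1 and 19. Ramp1, a partner of the CGRP receptor, had 28.4 and 35.2 CPM in submandibular libraries, against 3.99 and 4.53 CPM in P18 parotid (log2 difference 2.90 ± 0.33, edgeR adjusted p = 0.00358), and Adra2a, the alpha-2A adrenoceptor, had 16.1 and 13.5 CPM, against 2.09 and 0.403 CPM. The muscarinic receptor Chrm1 was called, with 8.64 and 8.06 CPM in submandibular libraries, against 2.63 and 0.717 CPM in P18 parotid. Chrm3, the main muscarinic receptor of acini, was not, with 35.9 and 31.3 CPM in submandibular libraries and 21.0 and 9.05 CPM in P18 parotid (1.16 ± 0.37, adjusted p = 0.0583). Adrb1, the beta-1 adrenoceptor, was not called either, with 18.3 and 15.7 CPM in submandibular libraries and 13.3 and 9.95 CPM in P18 parotid. Adrb3, the beta adrenoceptor of fat, had 0 and 0.220 CPM in submandibular libraries, against 7.35 and 19.6 CPM in P18 parotid, a ratio of 138 of parotid over submandibular gland (95% Poisson interval 47.1 to 667), and moved with the fat genes. Of 35 calcium and cyclic AMP signalling genes, 5 were higher (14.3%, against 10.2% of all genes) and 7 lower (20%, against 14.2%). The counts were 1 and 26 under epithelial scaling, 2 and 23 in the TPM test and 1 and 18 when libraries were scaled by their totals. They included the calcium pump Atp2a3, higher with 1910 and 1620 CPM in submandibular libraries, against 460 and 66.1 CPM in P18 parotid, which lost its call with any 1 adult replicate left out, and the fat-rich phosphodiesterase Pde3b, lower with 14.3 and 12.2 CPM in submandibular libraries, against 99.1 and 263 CPM in P18 parotid. Chrm1 and Ramp1 lost their calls under epithelial scaling, and Ramp1 and Adrb3 stayed called with any 1 library left out.

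Of 49 transcription factors tested that pattern the glands and the head, 11 were higher (22.4%, against 10.2% of all genes) and 9 lower (18.4%, against 14.2%). Their median log2 difference was 0.52 (-0.09 with plain library sizes, -0.94 with epithelial scaling and -0.04 without P18 parotid replicate 2). Tlx1, a homeobox factor known from spleen and branchial arches, had 21.9 and 22.1 CPM in submandibular libraries and 0 counts in P18 parotid, at least 325-fold higher (edgeR adjusted p = 0.00513). Adult parotid had 0, 0.573 and 0.0483 CPM. Foxa1, a forkhead factor of glandular epithelia, had 33.9 and 26.4 CPM in submandibular libraries, against 0.0454 and 0.0448 CPM in P18 parotid, a ratio of 678 (95% Poisson interval 188 to 5600). Barx1, known from jaw and stomach, had 3.02 and 2.49 CPM in submandibular libraries, against 0.0454 and 0.0896 CPM in P18 parotid. Tfcp2l1, a factor of ducts, had 1440 CPM in each submandibular library, against 334 and 125 CPM in P18 parotid. Pax9, Gata6 and Lhx8 were lower, Pax9 with 23.7 and 24.2 CPM in submandibular libraries, against 154 and 40.1 CPM in P18 parotid, Gata6 with 0.414 and 0.439 CPM, against 3.49 and 2.55 CPM, and Lhx8 with 0.355 and 0.220 CPM, against 1.91 and 2.02 CPM. Tbx1, which also acts in head muscle, had 0 and 0.0732 CPM in submandibular libraries, against 0.499 and 1.61 CPM in P18 parotid, and lost its call without P18 parotid replicate 2, the library with more muscle RNA. Tlx1, Foxa1 and Barx1 kept their calls under epithelial scaling, and Tfcp2l1 did not. The lower Pax9, Gata6 and Lhx8 kept theirs too, but that scaling favours lower calls. Pax9 lost its call with P18 parotid replicate 1 or any 1 adult replicate left out. Without submandibular replicate 1 the list median was 0.42 and without replicate 2 it was 0.54, and few or no members were then called.

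Hox genes mark position along the body axis behind the head. Of 40 counted entries with a Hox symbol, the antisense RNA Hoxa11as among them, 14 passed the filter through the parotid libraries, where they are high. That all 14 were called lower was therefore largely fixed by the filter. Without a filter 30 were tested, of which 12 were called lower and 0 higher, with a median log2 difference of -3.53. On log2(TPM + 1) without a filter the median was -0.40, less negative than the -0.79 of all genes. The 14 genes summed to 1.54 and 1.10 CPM in submandibular libraries, against 17.8 and 38.9 CPM in P18 parotid and 17.0 to 19.4 CPM in adult parotid. Hoxd8 had 0.533 and 0.439 CPM in submandibular libraries, against 5.36 and 11.8 CPM in P18 parotid (log2 difference -4.11 ± 0.52, edgeR adjusted p = 0.00455). Hoxb4 had 0.0592 and 0.0732 CPM in submandibular libraries, against 1.54 and 3.36 CPM in P18 parotid, a ratio of 37.5 of parotid over submandibular gland (95% Poisson interval 10.4 to 310). Hoxa3, Hoxa4, Hoxc4, Hoxc5 and Hoxc6 had 0 counts in submandibular libraries, and Hoxc5 was at least 26.4-fold lower. Without P18 parotid replicate 2, 11 were called lower, and without submandibular replicate 1 and 2 the numbers were 1 and 0. The fibroblast genes (14 members) moved the same way, at 2970 and 3370 CPM in submandibular libraries, against 6560 and 10200 CPM in P18 parotid, and their part in the Hox difference was not tested.

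**Figure D5:**
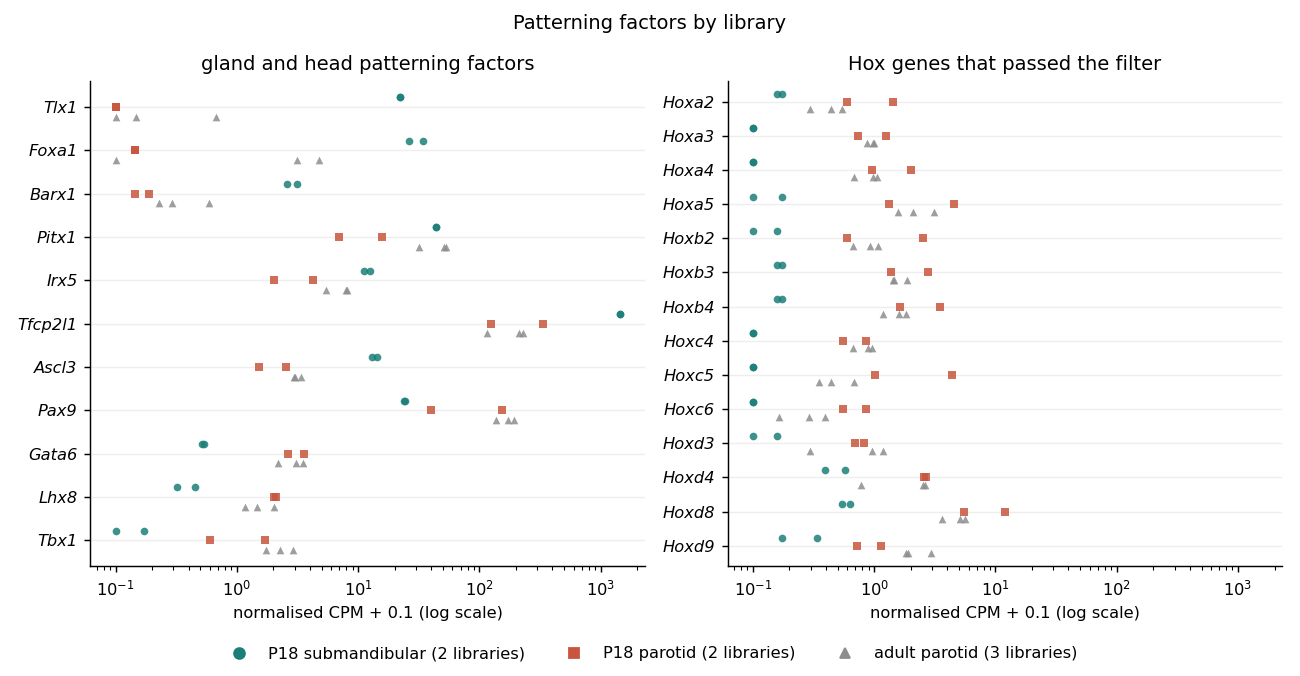
Normalised CPM plus 0.1 (horizontal, log scale) of 11 patterning factors (left) and the 14 Hox genes that passed the filter (right) in each library, with P18 submandibular as circles, P18 parotid as squares and adult parotid as triangles. Tlx1, Foxa1 and Barx1 in submandibular libraries lie above all parotid libraries, and each of the 14 Hox genes, which passed the filter through parotid, lies lower in submandibular libraries than in both P18 parotid libraries.

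Of 48 ligands and receptors of branching tested, 10 were higher (20.8%, against 10.2% of all genes) and 8 lower (16.7%, against 14.2%). Their median was 0.22, but -0.39 with plain library sizes and -1.43 with epithelial scaling. Ret, the receptor for neurotrophic factors of the GDNF family, had 133 and 115 CPM in submandibular libraries, against 4.27 and 4.03 CPM in P18 parotid and 5.19 to 5.41 CPM in adult parotid. Its adjusted p of 0.000299 was the smallest in edgeR's test, with a log2 difference of 4.90 ± 0.20, and it stayed called with any 1 library left out. Wnt4 had 25.1 and 27.5 CPM in submandibular libraries, against 7.04 and 3.63 CPM in P18 parotid, and lost its call under epithelial scaling. Ntrk2, the receptor for brain-derived neurotrophic factor, was lower, with 20.6 and 17.2 CPM in submandibular libraries, against 86.3 and 126 CPM in P18 parotid (-2.49 ± 0.36). Lef1, a nuclear partner of Wnt signalling, had 0.414 and 0.146 CPM in submandibular libraries, against 16.1 and 2.42 CPM in P18 parotid, and lost its call without P18 parotid replicate 1. The T and NK cell genes (13 members) moved the same way, at 5.56 and 4.17 CPM in submandibular libraries, against 178 and 32.2 CPM in P18 parotid. Their part in the Lef1 difference was not tested.

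A few further genes were high in submandibular libraries and low in P18 parotid, of which Gucy2c, Liph and Duox2 were chosen after their values were seen. Gucy2c, the guanylin receptor of the intestine, had 90.4 and 82.0 CPM in submandibular libraries, against 1.45 and 0.0448 CPM in P18 parotid (log2 difference 6.84 ± 0.96, edgeR adjusted p = 0.00584). Liph, a lipase that makes lysophosphatidic acid, had 70.5 and 73.3 CPM, against 0.817 and 1.16 CPM in P18 parotid, and Duox2, which makes hydrogen peroxide for peroxidases, had 31.1 and 17.6 CPM, against 0.862 and 0.134 CPM. Col11a1, a fibrillar collagen known from cartilage, had 73.2 and 81.7 CPM in submandibular libraries, against 2.18 and 2.02 CPM in P18 parotid. Of the 43 collagens tested, 10 were lower (23.3%, against 14.2% of all genes) and 2 higher (4.65%, against 10.2%). The median of the collagens was -0.24, which is -0.17 relative to all genes tested. Plain library sizes, TPM and epithelial scaling move the median of all genes downward, so a negative sign under them is no check. On log2(TPM + 1) the collagens stood 0.04 above the median of all genes. Tmem59l, named by the rule on size, had 46.2 and 45.3 CPM in submandibular libraries, against 0.0908 and 0.0448 CPM in P18 parotid. Liph, Col11a1 and Tmem59l stayed called with any 1 library left out, and in adult parotid these 3 and Gucy2c had 0 to 4.26 CPM.

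Growth and metabolism also differed. Of 41 cell cycle and replication genes 8 were called, all higher (19.5%, against 10.2% of all genes), with a median log2 difference of 0.96 (-0.57 under epithelial scaling). Mcm2, a helicase subunit, had 62.3 and 45.3 CPM in submandibular libraries, against 18.0 and 11 CPM in P18 parotid (1.89 ± 0.40, edgeR adjusted p = 0.0171). Mki67, a marker of dividing cells, was not called, with 246 and 260 CPM in submandibular libraries and 282 and 77.3 CPM in P18 parotid. Of 23 cholesterol synthesis genes 10 were called, all higher (43.5%, against 10.2% of all genes). Their median was 0.66, but -0.21 on log2(TPM + 1) and -0.92 with epithelial scaling. Among them was Insig1, the sterol sensor, with 235 and 255 CPM in submandibular libraries, against 85.2 and 49.9 CPM in P18 parotid. Without P18 parotid replicate 2, 4 cell cycle and 7 cholesterol genes passed, and with either submandibular replicate left out 0 of each list. Of 33 genes for fatty acid oxidation and the citric acid cycle 29 were lower (87.9%, against 14.2% of all genes) and 1 was higher (3.03%). Their median was -2.41 (-1.25 without P18 parotid replicate 2). With either submandibular replicate left out 0 were called, and with the 4 P18 libraries alone 5 were. Cpt1b, the carnitine transferase of muscle and brown fat, had 0 counts in submandibular libraries and 3.72 and 19.3 CPM in P18 parotid, at least 118-fold lower. The exception was Cpt1a, the form of liver and many epithelia, with 192 and 183 CPM in submandibular libraries, against 116 and 64.0 CPM in P18 parotid (1.06 ± 0.29), which lost its call under epithelial scaling and with any 1 adult replicate left out. These genes moved with the fat and muscle lists given above, and the part of those tissues was not tested.

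Markers of cells other than epithelium were mostly lower. The shares below stand against 14.2% lower and 10.2% higher of all genes. Of 20 fat cell genes 19 were called lower (95%), with a median log2 difference of -10.45 (-8.89 with members at 0 counts set to their bound). In all 20 the P18 libraries of the glands did not overlap, against 64.9% of all genes tested. Ucp1, the uncoupling protein of brown fat, had 0.237 and 0.293 CPM in submandibular libraries, against 674 and 2800 CPM in P18 parotid (-12.65 ± 1.25, edgeR adjusted p = 0.00282), and Adipoq, the fat hormone adiponectin, had 0.0592 and 0.146 CPM, against 174 and 523 CPM. Of 19 skeletal muscle genes 17 were lower (89.5%). Lymphoid genes were lower as well, 9 of 11 B and plasma cell genes (81.8%) and 13 of 13 T and NK cell genes (100%). They summed to 2.49 and 1.39 CPM for B cells in submandibular libraries, against 176 and 25.3 CPM in P18 parotid, so here parotid replicate 1 was the higher one. The fat, muscle and lymphoid genes passed the filter mainly through parotid, which favours lower calls. Without a filter, 19 of 20 fat, 18 of 20 muscle, 9 of 12 B and plasma cell and 12 of 13 T and NK cell genes were lower and 0 higher. Myoepithelial genes ran opposite, 6 of 10 higher (60%), with Cnn1, the smooth muscle calponin, at 30.8 and 35.1 CPM in submandibular libraries, against 11 and 12.5 CPM in P18 parotid. Their median of 0.70 was -0.19 on log2(TPM + 1) and -0.98 with epithelial scaling. Without submandibular replicate 1 and 2, 15 and 12 fat genes were still called lower, while 0 muscle, B cell and T cell genes were.

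The remaining lists can be given by their counts. Against 10.2% higher and 14.2% lower of all genes, amino acid supply genes had 8 of 36 higher (22.2%) and 1 lower (2.78%). Their median was 0.53, but -0.08 with plain library sizes, -0.39 on log2(TPM + 1) and -1.13 with epithelial scaling. The next lists were taken by symbol and hold some genes that are not members proper. The potassium channels include Kcnip3, named as an interacting protein. The higher calls among proteasome genes were Psmd5 and Psmc3ip, the latter also named as an interacting protein. Potassium channels had 8 higher and 8 lower of 55 (14.5% each). Glycolysis had 2 higher (9.52%) and 5 lower (23.8%) of 21, and serpins 3 (12.5%) and 5 (20.8%) of 24. Proteasome genes had 2 and 2 of 39, but 0 and 24 on log2(TPM + 1), 0 and 29 with epithelial scaling and 10 and 2 without P18 parotid replicate 2. Mitochondrial ribosomal proteins had 0 and 3 of 76, but 0 and 76 with epithelial scaling, 0 and 70 in the TPM test, 0 and 43 when libraries were scaled by their totals, and 4 and 1 without P18 parotid replicate 2, where the median turned to 0.28. Mast cell and neutrophil genes summed to 2.07 and 3.66 CPM in submandibular libraries and passed the filter mainly through parotid, which favours lower calls. Without a filter 4 of 12 of them were lower. Endothelial genes were lower in 11 of 13, fibroblast genes in 6 of 14, macrophage genes in 7 of 13, mast cell and neutrophil genes in 5 of 9 and Schwann cell genes in 6 of 13, against 14.2% of all genes tested. Without submandibular replicate 2 none of these lists held more than 2 calls.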

How the data were processed

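Illumina TruSeq libraries of mouse salivary glands were sequenced; the labels call the RNA polyadenylated, although RNAs without a poly(A) tail rank high in the P18 libraries. The authors deposited raw counts per gene and TPM, which divides counts by gene length. The submitters' processing notes name TopHat2 (2.1.1), Bowtie2 (2.2.6), featureCounts (1.5.1), DESeq2 (1.20.0) and the build mm9. How strand and reads with several hits were handled is not given in the sources used here. Near-identical copies (secretoglobins, Dcpp, Smr, proline-rich and major urinary proteins) and overlapping genes such as Smgc and Muc19 are therefore uncertain. Among the count columns, 2 matched no label and were not used. The members and gene lists were chosen with earlier results of these data known.

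Counts were fitted with edgeR 4.0.16 in R 4.3.3 (filterByExpr, TMM, quasi-likelihood F test) in 1 model of 3 groups with 4 residual degrees of freedom and Benjamini-Hochberg adjustment over all 15129 genes. Errors are standard errors worked back from the test, as the absolute log2 difference over the square root of F. They restate the test and are no separate measure of spread. A gene at 0 counts in a group gets a bound at 3 counts over that group, and 1 to 3 counts a 95% exact Poisson interval, both for counting error only. Genes were named by size (in each direction the 12 largest differences where a group averaged 20 CPM or more, likewise among genes not higher in parotid replicate 2, and the 10 most abundant past 4-fold) and by the smallest p in each list; not all are printed, and others were chosen after their values were seen. Alternatives used DESeq2 1.42.0 and limma 3.58.1 (log2 of TPM with a pseudocount of 1 or 0.1). Sequences came from RefSeq promoters (GRCm38.p6), aligned with Biopython 1.88. No replicate pair agreed within counting noise (chi-square per degree of freedom 13.3 for submandibular gland and 197 for P18 parotid).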

Additional observations from a re-analysis of the deposited data

How the results depend on the processing

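With TMM, 3686 genes were called (1537 higher, 2149 lower), 1620 of them at least 4-fold (401 higher, 1219 lower). DESeq2 size factors gave counts within 1.5 times of these. Plain library sizes gave 5967 calls (520 higher, 5447 lower), with 229 higher and 2113 lower at 4-fold or more, so that 8.71% of calls were higher, against 41.7% with TMM. With limma on log2(TPM + 1) there were 9699 calls (494 higher, 9205 lower; 99 higher at 4-fold), without a filter on low values 9941 (553 higher, 9388 lower; 99 higher at 4-fold), and on log2(TPM + 0.1) 9130 (429 higher, 8701 lower), with 2694 at 4-fold (192 higher, 2502 lower). Scaling to the epithelial genes, chosen after seeing the data, gave 11273 calls (210 higher, 11063 lower), with 5974 at 4-fold (139 higher, 5835 lower). The 4 P18 libraries alone gave 1349 calls (547 higher, 802 lower), 946 of them at 4-fold (638 lower). Leaving out single libraries gave 148 to 5397 calls (76 to 2413 higher, 72 to 2984 lower), and 143 to 2087 at 4-fold (71 to 792 higher, 72 to 1295 lower), lowest without submandibular replicate 2 and highest without P18 parotid replicate 1. A replicate block gave 945 higher and 1584 lower calls, and of 111 named calls 96 held. The replicate numbers are only numbers, with 2 pairs and a correlation of 0.26 between the deviations of same-numbered P18 libraries. Under epithelial scaling 5 named genes turned to slightly negative values, none of them called: Lman1 -0.06, Yipf5 -0.09, Cnn1 -0.23, Xbp1 -0.31 and Cpt1a -0.46. Named calls held in 111 of 111 with DESeq2 size factors, 109 with DESeq2's Wald test, 103 with plain library sizes, 87 with epithelial scaling, 105 without P18 parotid replicate 2, 47 without submandibular replicate 1 and 29 without submandibular replicate 2. The cause was not tested. With 2 libraries a gland an exact permutation test cannot go below a two-sided p of 0.333, so all calls lean on the shared model. Genes with few counts in 1 gland have folds limited by depth.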
